A study of Rattus norvegicus with 15 samples.

Results

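The core circadian clock genes of the liver are described here in male Sprague-Dawley rats on normal chow, on a lipid-raising feed, and on that feed with a herbal decoction. The set holds 10 genes, taken by symbol from a table of 21576 genes: the activators Arntl, Clock and Npas2, the repressors Per1, Per2, Per3, Cry1, Cry2 and Nr1d1, and the output factor Dbp. All 10 are in the table and all 10 passed the filter on low counts. RNA sequencing of liver gave 15 libraries, 5 per group. The CON group was kept on normal chow. The feed of the HFD group had a base of 66% forage, to which 0.2% propylthiouracil, an inhibitor of thyroid hormone synthesis, 0.3% sodium cholate, 16.7% sucrose, 7% lard, 8.3% yolk and 2% cholesterol were added, and saline was given after the initial 4 weeks. The ZXD group had that feed too and, over the last 4 weeks, took an oral dose of 2.2 g/kg of Zexie Decoction daily. The labels give neither the age of the rats nor the time of day at which livers were taken. Of 10 rats per group, they do not say which ones the libraries came from, so p-values reflect the spread among these samples alone, part or all of which may be technical.

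The clock is a loop of transcription factors. BMAL1, the product of Arntl, pairs with CLOCK or with its relative NPAS2 and switches on genes that carry E-boxes, among them the Per and Cry genes, Nr1d1 and Dbp. PER and CRY proteins then block the pair, and REV-ERB-alpha, the product of Nr1d1, represses Arntl and Npas2 through ROR elements. In liver the activators and the E-box genes peak at different times of day, and feeding time sets the phase.

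Promoter sequences were searched for the motifs of these inputs. They come from RefSeq, build GRCr8, where 9 of the 10 genes have an entry (Arntl under the symbol Bmal1) and Cry1 has none. Windows of 300 bases, from 250 before to 50 after the start site, were searched on both strands for the E-box CACGTG, its variant CACGTT, the D-box TTATGTAA and the ROR element, and no matches overlapped. Of all 33469 windows of that length, 6.42% hold the E-box, 4.83% the variant, 0.893% the D-box and 0.356% the ROR element. Among the 9 genes, Per2, Cry2 and Nr1d1 hold an E-box or its variant, Per2 also holds the D-box, and Arntl holds the ROR element. The 250 bases before the start site are printed 5′ to 3′ for 3 genes that stand for the loop's arms, with the matches in capitals. They are the ROR element of Arntl (chr1:176766078-176766327, plus strand), the D-box and the E-box variant of Per2 (chr9:99496994-99497243, minus strand), and the E-box at the downstream of 2 listed start sites of Nr1d1 (chr10:84229455-84229704, minus strand). A match is a description of the letters, not of binding.
Arntl: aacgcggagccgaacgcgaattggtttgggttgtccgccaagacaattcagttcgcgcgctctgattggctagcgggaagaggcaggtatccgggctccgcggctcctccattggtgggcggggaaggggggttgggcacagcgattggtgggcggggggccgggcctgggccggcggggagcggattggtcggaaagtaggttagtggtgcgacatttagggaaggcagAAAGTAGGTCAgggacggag
Per2: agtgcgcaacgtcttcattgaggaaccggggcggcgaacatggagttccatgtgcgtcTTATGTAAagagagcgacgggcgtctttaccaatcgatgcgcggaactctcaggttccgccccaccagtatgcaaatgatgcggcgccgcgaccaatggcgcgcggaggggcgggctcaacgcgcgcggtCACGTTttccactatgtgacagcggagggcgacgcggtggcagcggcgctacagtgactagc
Nr1d1: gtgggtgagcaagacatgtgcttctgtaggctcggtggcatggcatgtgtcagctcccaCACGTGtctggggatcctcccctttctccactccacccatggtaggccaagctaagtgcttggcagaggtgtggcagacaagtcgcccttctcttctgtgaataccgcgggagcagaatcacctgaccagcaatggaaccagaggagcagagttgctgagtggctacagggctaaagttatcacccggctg

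Values are CPM, the read counts scaled by library size after edgeR's TMM factors, and a gene was called at an edgeR adjusted p under 0.05, adjusted over all 13163 genes tested. Libraries held 12552449 to 14228052 counts, so 3 counts, the limit that a count of 0 allows for counting error, came to between 0.183 and 0.285 CPM. TMM factors were 0.793 to 0.868 in CON and 1.01 to 1.28 in the other groups. With library totals in their place, the all-gene median of the log2 fold change was 0.44 rather than 0.02 for HFD versus CON, and 0.46 rather than 0.03 for ZXD versus CON. Changes against CON are therefore given relative to the TMM scale. Values on library totals stand beside those of core clock genes whose call or direction differs. For other genes, counts of calls on library totals are given, with the named calls that were lost. The comparisons of HFD and of ZXD with CON share the CON libraries. In these bulk samples, fewer cells of a type and less RNA per cell cannot be told apart.

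On the lipid-raising feed, Npas2 was far higher, Per1, Per2, Per3 and Cry1 were lower, and the other 5 clock genes were not called. In HFD versus CON 5 of 10 clock genes were called, beside 21.0% of all genes tested, 1 of them higher, beside 10.0%, and 4 lower, beside 10.9%. The groups did not overlap for 4 of the 10 (1980, or 15%, of all genes), 1 higher (6.59%) and 3 lower (8.46%). ZXD versus CON also gave 5 calls, beside 32.7% of all genes, 1 of them higher (17.9%) and 4 lower (14.8%). The groups of that comparison did not overlap for 5 of the 10 (18.0%), 1 higher (8.20%) and 4 lower (9.79%). The called genes were Npas2, Per1, Per2, Per3 and Cry1 in both comparisons. The median log2 fold change of the 10 genes was -0.51 in HFD versus CON and -0.24 in ZXD versus CON. On library totals the calls were 3 higher (Npas2, Arntl and Nr1d1) and 3 lower (Per2, Per3 and Cry1) in HFD versus CON. Of all 13163 genes, 5385 were called higher and 505 lower there. In ZXD versus CON they were 2 higher (Npas2 and Nr1d1) and 2 lower (Per2 and Cry1), beside 6041 and 628 of all genes. Higher calls on that scale were thus common among all genes.

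**Figure D1:**
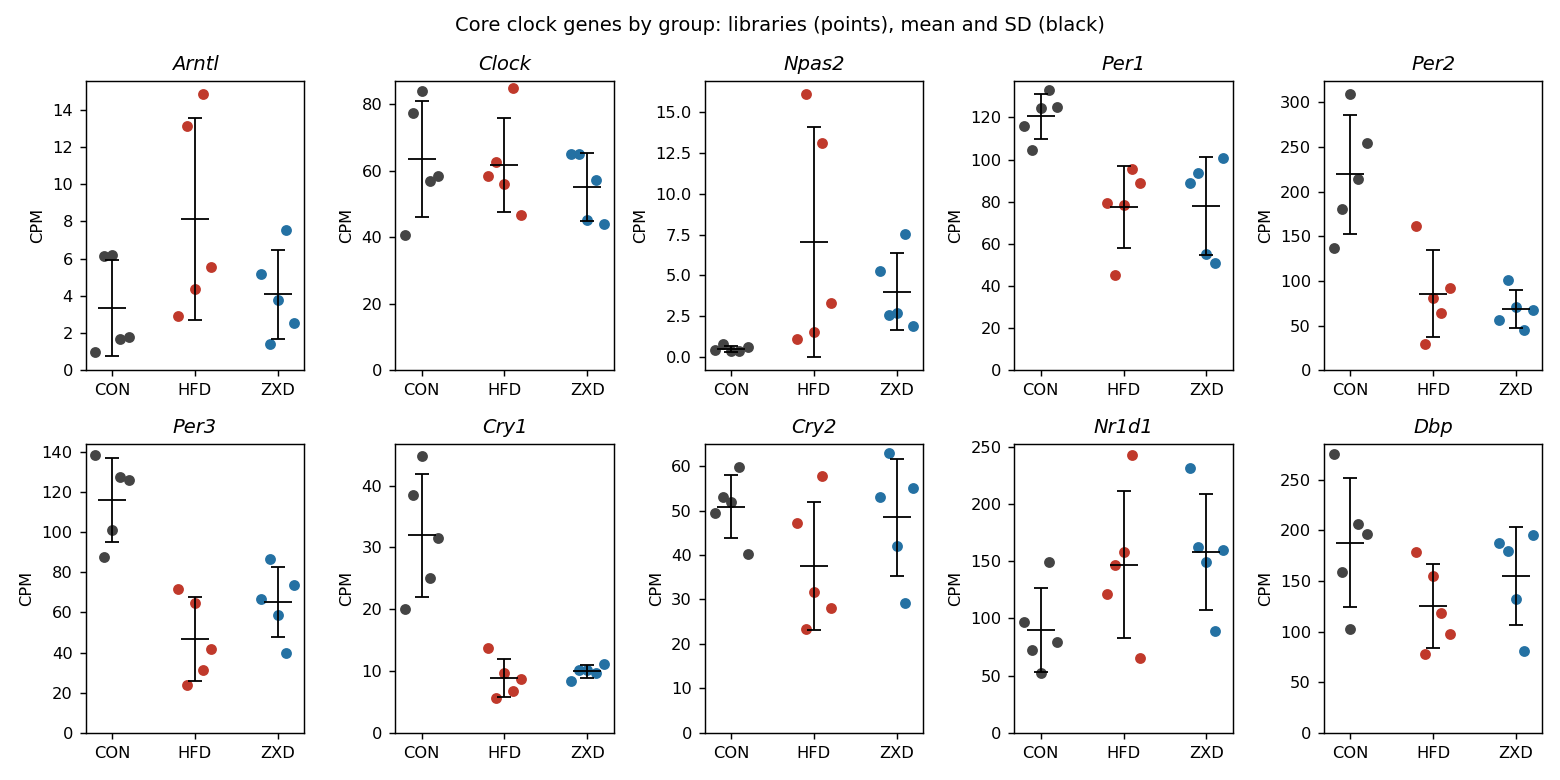
Level of each core clock gene in CPM (vertical axis, from 0) in the 5 libraries of each group (points), with the mean and SD in black. Npas2 lay under 1 CPM in every CON library and between 1.10 and 16.1 CPM in HFD, while Cry1 lay at 20.0 CPM or more in CON and at 13.7 CPM or less in the other groups.

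Among the activators, Npas2 had the largest fold change of the 10 genes. Npas2, a CLOCK relative that can replace it as BMAL1's partner, measured 0.448, 0.802, 0.380, 0.354 and 0.596 CPM in CON 1 to 5. It measured 1.10, 16.1, 1.55, 13.1 and 3.32 CPM in HFD 1 to 5 and 5.29, 2.57, 2.72, 7.56 and 1.88 CPM in ZXD 1 to 5. Every library on the feed lay above every CON library, and HFD 2 and HFD 4 stood far above the other HFD libraries. These levels rest on 4 to 9 counts per CON library, 17 to 231 per HFD library and 26 to 124 per ZXD library. The rise was 3.74 on the log2 scale in HFD versus CON (SE 0.76, edgeR adjusted p = 0.00401) and 2.94 in ZXD versus CON (SE 0.75, edgeR adjusted p = 0.00954). Without HFD 2 and HFD 4 the HFD rise was 1.92 (edgeR adjusted p = 0.0343). Limma voom did not call Npas2 in HFD versus CON (adjusted p = 0.105) or in ZXD versus CON (adjusted p = 0.102).

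Arntl, which encodes BMAL1, measured 0.986, 6.15, 6.17, 1.68 and 1.79 CPM in CON 1 to 5. Its levels were 2.91, 13.1, 4.35, 14.9 and 5.56 CPM in HFD 1 to 5, and 5.16, 1.40, 3.77, 7.56 and 2.53 CPM in ZXD 1 to 5. The groups overlapped, since CON 2 and CON 3 lay above HFD 1, HFD 3 and HFD 5. The highest levels were again those of HFD 2 and HFD 4. Arntl was not called in HFD versus CON at a log2 fold change of 1.28 (SE 0.60, 95% interval -0.02 to 2.58, edgeR adjusted p = 0.132), which was 0.35 without HFD 2 and HFD 4. On library totals it was called at 1.69 (edgeR adjusted p = 0.0372). In ZXD versus CON its log2 fold change was 0.29 (SE 0.60, edgeR adjusted p = 0.742), 0.77 on library totals and -0.05 without ZXD 4.

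Clock measured 63.4 ± 17.4 CPM in CON, 61.6 ± 14.2 CPM in HFD and 55.2 ± 10.2 CPM in ZXD (SD, n = 5 each). Its groups overlapped throughout, and its fold change against CON was within the spread, at -0.04 on the log2 scale in HFD (95% interval -0.48 to 0.40, edgeR adjusted p = 0.898). On library totals that value was 0.37 (edgeR adjusted p = 0.133). In ZXD versus CON it was -0.20 (SE 0.20, edgeR adjusted p = 0.469), or 0.23 on library totals.

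Of the 6 repressors, 4 were lower on the feed. Cry1, a cryptochrome that blocks the activator pair, measured 20.0, 38.4, 44.8, 25.1 and 31.6 CPM in CON 1 to 5. It measured 13.7, 5.58, 9.67, 6.74 and 8.67 CPM in HFD 1 to 5 and 8.46, 10.2, 10.1, 9.70 and 11.2 CPM in ZXD 1 to 5. No library on the feed reached the lowest CON library. Cry1 fell by 1.85 on the log2 scale in HFD versus CON (SE 0.24, edgeR adjusted p = 0.000194) and by 1.68 in ZXD versus CON (SE 0.24, edgeR adjusted p = 0.000351). Leaving out any single library left both calls, with edgeR adjusted p up to 0.000833 and 0.0015. The ZXD libraries lay closer together than those of the other groups.

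Per2, a period gene whose product carries CRY proteins into the nucleus, measured 137, 181, 310, 214 and 254 CPM in CON 1 to 5. Its levels were 162, 29.2, 80.7, 64.0 and 92.5 CPM in HFD 1 to 5, and 56.1, 101, 71.2, 45.0 and 67.4 CPM in ZXD 1 to 5. HFD 1 lay above CON 1, and all the other libraries on the feed lay below every CON library. Per2 fell by 1.36 on the log2 scale in HFD versus CON (SE 0.36, edgeR adjusted p = 0.0179) and by 1.68 in ZXD versus CON (SE 0.36, edgeR adjusted p = 0.00434). The HFD call was lost without CON 3 (edgeR adjusted p = 0.0518) and without HFD 2 and HFD 4 together (-0.97, edgeR adjusted p = 0.0634).

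Per3, a period gene not needed for the loop to run, measured 138, 87.9, 101, 128 and 126 CPM in CON 1 to 5. It measured 71.8, 23.8, 64.5, 31.1 and 41.9 CPM in HFD 1 to 5 and 66.8, 86.5, 58.9, 39.7 and 73.7 CPM in ZXD 1 to 5. No library on the feed reached the lowest CON library, though ZXD 2 came close to it. Per3 fell by 1.32 on the log2 scale in HFD versus CON (SE 0.28, edgeR adjusted p = 0.00551) and by 0.84 in ZXD versus CON (SE 0.28, edgeR adjusted p = 0.0328). The ZXD call was lost without any 1 of CON 1, CON 4, CON 5, ZXD 1, ZXD 3 and ZXD 4 (edgeR adjusted p up to 0.0802) and on library totals (-0.44, edgeR adjusted p = 0.181).

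Per1, a period gene that glucocorticoids also induce, measured 116, 105, 125, 133 and 125 CPM in CON 1 to 5. Levels were 79.4, 45.0, 78.3, 95.6 and 88.7 CPM in HFD 1 to 5, and 89.1, 93.6, 55.0, 50.9 and 101 CPM in ZXD 1 to 5. The CON libraries lay within a narrow range above all the others. Its fall by 0.64 in HFD versus CON (log2, SE 0.21) was close to the threshold, with an edgeR adjusted p of 0.0453. It was lost when any CON library, HFD 1, 2, 3 or 5, or ZXD 1 or 2 was left out (edgeR adjusted p up to 0.107), with the replicate number as a block (0.0739) and on library totals (-0.22, edgeR adjusted p = 0.362). In ZXD versus CON Per1 fell by 0.63 (SE 0.21, edgeR adjusted p = 0.0347), and that call was lost without any 1 of CON 3, CON 4, CON 5, ZXD 3 and ZXD 4 (edgeR adjusted p up to 0.0869), with the block (0.0607) and on library totals (-0.23, edgeR adjusted p = 0.338).

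The remaining 2 repressors were not called. Cry2, the other cryptochrome, measured 50.9 ± 7.08 CPM in CON, 37.6 ± 14.4 CPM in HFD and 48.5 ± 13.1 CPM in ZXD (SD, n = 5 each), and its groups overlapped. Its log2 fold change was -0.44 in HFD versus CON (SE 0.24, edgeR adjusted p = 0.203), or -0.015 on library totals, and -0.07 in ZXD versus CON (SE 0.24, edgeR adjusted p = 0.851), which was 0.34 on library totals. Nr1d1, the nuclear receptor REV-ERB-alpha, measured 96.9, 72.2, 52.2, 149 and 79.4 CPM in CON 1 to 5. Its levels were 122, 146, 158, 243 and 65.7 CPM in HFD 1 to 5, and 231, 162, 149, 88.6 and 160 CPM in ZXD 1 to 5. Most libraries on the feed were higher than most CON libraries, but the groups overlapped through CON 4, HFD 5 and ZXD 4.

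So the mean of Nr1d1 lay on the other side of CON from those of the other 5 repressors. Its log2 fold change was 0.71 in HFD versus CON (SE 0.34, 95% interval -0.03 to 1.44, edgeR adjusted p = 0.14) and 0.81 in ZXD versus CON (SE 0.34, edgeR adjusted p = 0.0756). On library totals both passed, at 1.12 and 1.23 (edgeR adjusted p = 0.0117 and 0.00562). ZXD versus CON also passed with DESeq2 (adjusted p = 0.0497) and without any 1 of CON 4, HFD 5 and ZXD 4 (edgeR adjusted p down to 0.0308).

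Dbp, a D-box binding factor that passes the rhythm on to liver enzymes, measured 276, 159, 102, 206 and 197 CPM in CON 1 to 5. It measured 179, 78.2, 155, 119 and 97.2 CPM in HFD 1 to 5 and 187, 180, 132, 80.5 and 196 CPM in ZXD 1 to 5. CON ranged widely and the groups overlapped, although every library on the feed lay below the CON median. Dbp was not called, at -0.58 on the log2 scale in HFD versus CON (SE 0.29, 95% interval -1.22 to 0.06, edgeR adjusted p = 0.162), or -0.16 on library totals, and -0.28 in ZXD versus CON (SE 0.29, edgeR adjusted p = 0.492), which was 0.12 on library totals.

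**Figure D2:**
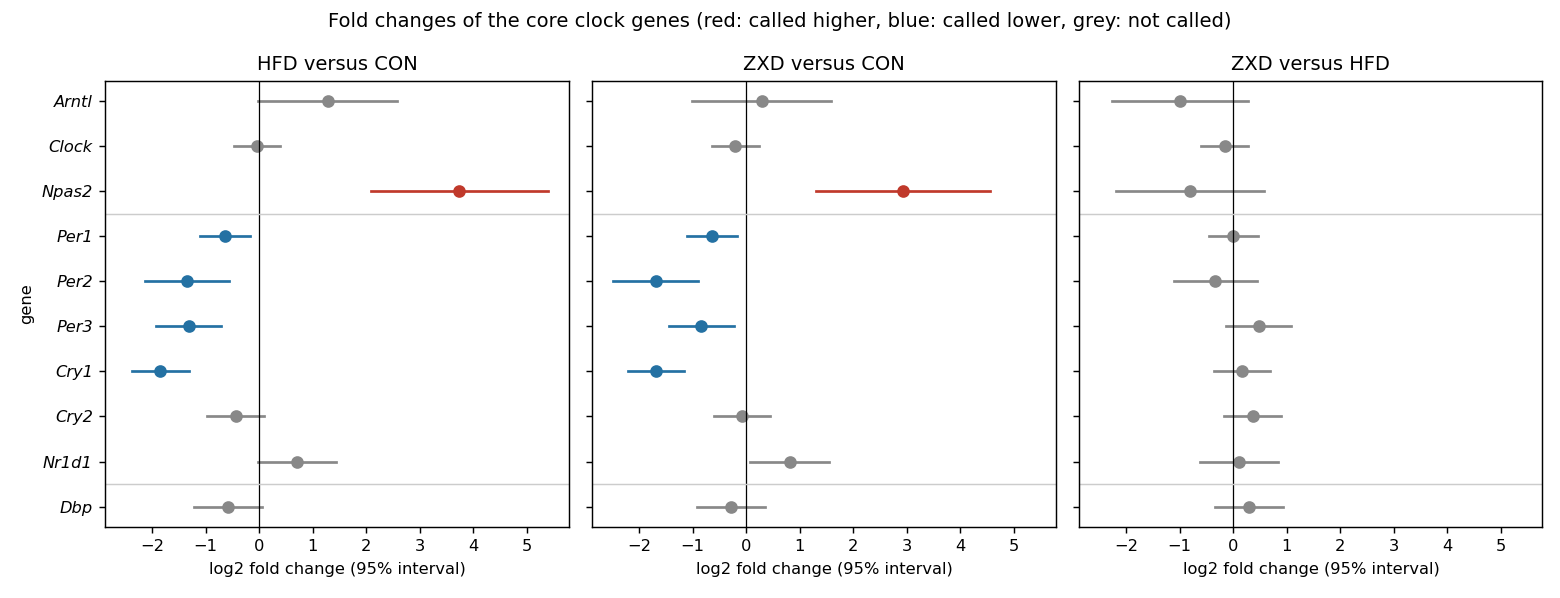
Log2 fold change of each core clock gene (points) with its 95% interval (lines) in 3 comparisons, with grey rules between activators, repressors and Dbp. Called genes are red (higher) or blue (lower): Npas2 is red and Per1, Per2, Per3 and Cry1 are blue against CON, and no gene is called in ZXD versus HFD.

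The arms thus moved oppositely only in part. Against CON, called changes were higher for 1 of 3 activators and lower for 4 of 6 repressors, while Arntl, Clock, Cry2 and Nr1d1 had no call. Within a library, the Dbp minus Arntl difference, with no correction for gene length, was 6.02 ± 1.62 on the log2 CPM scale (CON), 4.12 ± 1.39 (HFD) and 5.33 ± 1.32 (ZXD) (SD, n = 5 each). This difference does not depend on how libraries are scaled, and its groups overlapped, CON running from 4.02 to 7.92, HFD from 2.56 to 5.87 and ZXD from 3.39 to 6.86. The Nr1d1 minus Per2 difference, likewise with no correction for length, ran from -2.57 to -0.495 (CON), from -0.493 to 2.32 (HFD) and from 0.68 to 2.04 (ZXD). Every library on the feed thus lay above every CON library, though the lowest HFD library only barely did. This pair joins a gene with a higher mean on the feed to one called lower. A separation was therefore favoured by the choice of the pair, and it is no further evidence that the arms moved oppositely. These differences were set up from the members and carry no test. A shift of the time at which the loop runs and a change of its levels at 1 time cannot be told apart here, since each liver gives 1 time point of unknown hour.

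The decoction was compared with saline on the same feed to see whether it moved any clock gene. None of the 10 was called in ZXD versus HFD, where 0% of all 13163 genes were called by edgeR and 2167 had an unadjusted p under 0.05. Limma voom called 0 genes and DESeq2 called 348, with none of the 10 core genes among them. The groups overlapped for all 10, while 3.68% of all genes did not overlap, 2.14% higher and 1.53% lower. Arntl was 4.09 ± 2.39 CPM in ZXD and 8.16 ± 5.43 CPM in HFD (SD, n = 5 each), a log2 fold change of -0.99 (95% interval -2.27 to 0.28, edgeR adjusted p = 0.398). Npas2 gave -0.81 (95% interval -2.19 to 0.57, edgeR adjusted p = 0.518), which turned to 1.01 without HFD 2 and HFD 4. Per3 gave 0.48 (95% interval -0.12 to 1.09, edgeR adjusted p = 0.389), with 4 of 5 ZXD libraries above the HFD median. Per2 gave -0.33 (95% interval -1.10 to 0.45, edgeR adjusted p = 0.646) and Cry1 0.16 (95% interval -0.36 to 0.69, edgeR adjusted p = 0.747). The intervals of Arntl, Npas2 and Per2 reach below -1, so a missed call does not show that the decoction left them alone. Per1, at 0.0090 (95% interval -0.45 to 0.47), Clock, Cry2, Nr1d1 and Dbp had intervals that stayed within -0.62 to 0.94.

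Levels were set side by side per kilobase of the deposited gene length. In CON, Dbp stood highest at 113 ± 38.4 CPM per kilobase (SD, n = 5), above the range of every other clock gene. Per2, Nr1d1, Per3 and Per1 followed, with means from 38.0 down to 30.2 CPM per kilobase that did not differ beyond their spread. Cry2 (12.8), Cry1 (10.9) and Clock (6.82) came next, with Cry1 overlapping both of its neighbours. Arntl stood at 1.13 ± 0.866 and Npas2 at 0.121 ± 0.0434 CPM per kilobase, each below the range of the gene before it. In HFD, Nr1d1 at 57.6 ± 25.3 was next to Dbp at 75.7 ± 24.9 with overlapping ranges, and Cry1 (3.04), Arntl (2.74) and Npas2 (1.65) ran into each other. Clock thus exceeded Npas2 in every group by this measure, at 6.63 against 1.65 CPM per kilobase in HFD and 5.94 against 0.938 in ZXD.

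Libraries of a group differed in their clock genes. In CON, the libraries ranked 3, 2, 5, 4, 1 from high to low for Arntl, and the same order held for Clock and for Cry1. Dbp had exactly the reverse order in CON. In HFD, Npas2 ranked 2, 4, 5, 3, 1, and Per3 and Cry1 had exactly the reverse order. Among the ZXD libraries, ZXD 4 was highest for Arntl and Npas2 and lowest for Per1, Per2, Per3, Cry2, Nr1d1 and Dbp. The lowest library was ZXD 2 for Arntl, ZXD 5 for Npas2 and ZXD 1 for Cry1. ZXD 4 also had the smallest share of counts from albumin of the 15 libraries, 1.76%, and the highest summed macrophage markers, 5633 CPM, and their part in this order was not tested. The numbers are names of libraries, with no order of their own.

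**Figure D3:**
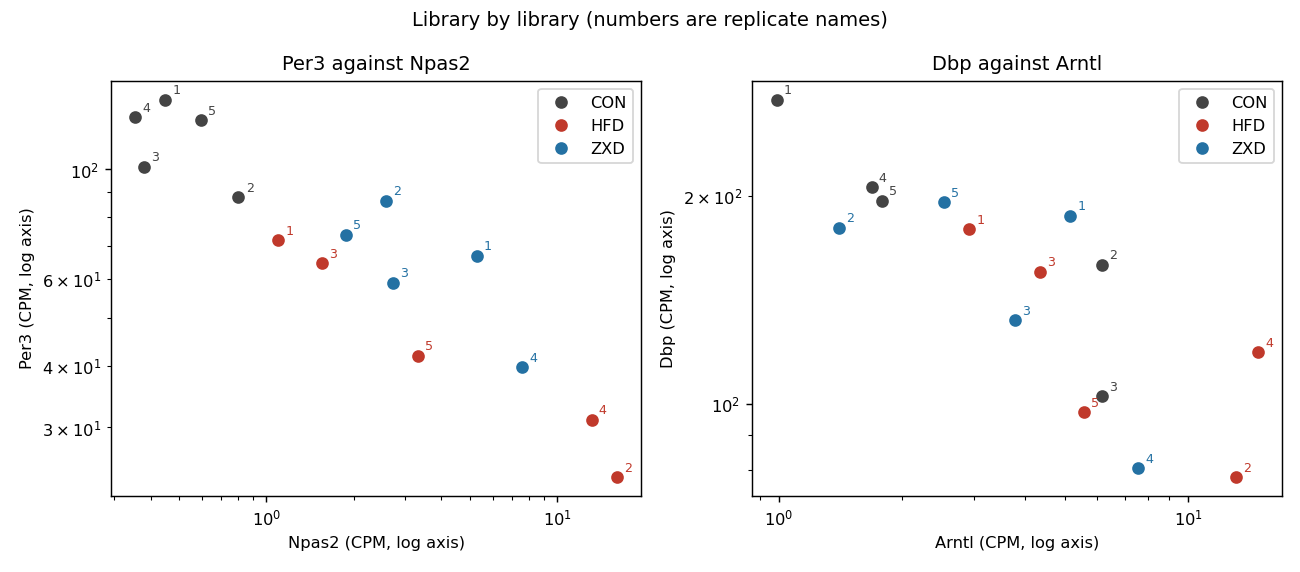
Per3 against Npas2 (left) and Dbp against Arntl (right) in CPM on log axes, each point a library numbered by its replicate name and coloured by group. Per3 falls as Npas2 climbs from CON through to HFD 2 and HFD 4, and CON, HFD and ZXD libraries mix in the panel of Dbp and Arntl.

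Across the 15 libraries, after each group's mean was taken off, Arntl had a Pearson r of -0.86 with Per3, -0.78 with Dbp, 0.72 with Npas2 and 0.64 with Clock. Of 13162 other tested genes, only Nelfe had a lower r with Arntl than Per3, and Dbp took place 12 from the bottom. Dbp in turn had an r of 0.81 with Per3, 0.76 with Nr1d2 and 0.73 with Tef. Cry1 had an r of 0.79 with Per2, and of -0.03 with Arntl and -0.03 with Dbp over the groups together. Those last values hide different orders within groups. In CON, Cry1 had the order of Arntl and the reverse of Dbp, while HFD 1 was highest for Cry1 and Dbp and lowest for Arntl. Nr1d1 had an r of 0.56 with Dbp and -0.15 with Arntl. All values of a library share its RNA, its depth and its scaling factor, so these r are descriptions and carry no p.

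Outside the set, the genes most like Arntl among 9563 tested genes of at least 5 CPM with no provisional symbol were Ncald, Mdfic, Rnf146, Fam111a and Ier2 (r from 0.82 to 0.88). The most opposed were Nelfe, Ddx46, Cenpc, Tbc1d8b and Farp1 (r from -0.87 to -0.81). For Dbp the most alike were Slc38a3, a glutamine transporter of hepatocytes, Ldb1, Polr3a, Fyttd1 and Scaper (r from 0.88 to 0.92), and the most opposed Sipa1l3, Mmp24, Atpif1, Mex3c and Prdx2 (r from -0.95 to -0.87). No member of the other clock lists is among these 20 genes.

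Of the nearest relatives of the core genes, Nr1d2, Bhlhe40, Tef and Hlf were lower on the feed and Bhlhe41 higher. These are 4 called lower and 1 higher of 8 tested loop partners in HFD versus CON, beside 10.9% and 10.0% of all genes, and likewise in ZXD versus CON, beside 14.8% and 17.9%, with medians of -0.66 and -0.59 beside 0.02 and 0.03 for all genes. Nr1d2, the second REV-ERB, fell from 190 ± 12.1 CPM in CON to 116 ± 25.0 CPM in HFD (edgeR adjusted p = 0.013). Tef and Hlf, which bind the same D-boxes as DBP, had log2 fold changes of -0.83 and -0.96 (SE 0.21 and 0.21, edgeR adjusted p = 0.0134 and 0.00589). Bhlhe40, a repressor that competes for E-boxes, fell by 1.28 (SE 0.33, edgeR adjusted p = 0.0151), while its relative Bhlhe41 rose from 2.06 ± 0.733 CPM in CON to 6.30 ± 1.48 (edgeR adjusted p = 0.00892) and to 14.1 ± 8.56 CPM in ZXD (edgeR adjusted p = 0.000245). On library totals Bhlhe41 stayed called and Hlf was the only partner called lower, in both comparisons. Of all 13163 genes, library totals gave 5385 higher and 505 lower in HFD versus CON, and 6041 and 628 in ZXD versus CON. Against CON, ZXD libraries were lower too: Nr1d2 fell by 0.57, Bhlhe40 by 1.05, Tef by 0.61 and Hlf by 1.03 (edgeR adjusted p = 0.0233, 0.0248, 0.0377 and 0.00297). Those of Nr1d2 (without CON 4 or ZXD 3), Bhlhe40 (without CON 1, ZXD 1 or ZXD 5) and Tef (without any 1 of CON 2 to CON 5, ZXD 1, ZXD 3 and ZXD 4) were lost, with edgeR adjusted p up to 0.0936. The other 3 partners were not called in either comparison.

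Kinases, ligases and cofactors that tune clock proteins were called about as often as genes at large. Of 9 tested, 1 rose and 1 fell in HFD versus CON (21.0% of all genes were called). In ZXD versus CON 2 rose and 1 fell (32.7%). On library totals 4 rose and 1 fell in HFD versus CON, beside 5385 and 505 of all 13163 genes. In ZXD versus CON 4 rose and 0 fell on that scale, beside 6041 and 628. Timeless, named for its fly counterpart and active at replication forks, fell from 29.4 ± 15.8 to 9.84 ± 3.77 CPM in HFD (edgeR adjusted p = 0.00519) and was 21.1 ± 3.65 CPM in ZXD, not called against CON (edgeR adjusted p = 0.273). In ZXD versus HFD its log2 fold change of 1.10 was not called by edgeR (adjusted p = 0.171), but DESeq2 called Timeless (adjusted p = 0.0469). Csnk1e, a kinase that marks PER proteins for breakdown, rose by 0.87 in HFD versus CON (SE 0.25, edgeR adjusted p = 0.0252) and by 0.72 in ZXD versus CON (edgeR adjusted p = 0.0378). The HFD call was lost without any 1 of CON 4, HFD 2 and HFD 5 (edgeR adjusted p up to 0.0743), and the ZXD call without CON 1, 2, 4 or 5 or ZXD 3, 4 or 5 (up to 0.0946). Csnk1d, its close relative, was called lower in ZXD versus CON (-0.35, edgeR adjusted p = 0.0399) and Btrc, a ubiquitin ligase part, higher (0.55, edgeR adjusted p = 0.0206). Of the 15 single-library omissions, 8 and 5 ended those calls (edgeR adjusted p up to 0.0856 and 0.0667). On library totals Csnk1d was not called, at 0.079 (edgeR adjusted p = 0.613).

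Among liver genes known to follow the clock, more were called lower than higher. Of 10 tested outputs, 6 fell and 1 rose in HFD versus CON, beside 10.9% and 10.0% of all genes. On library totals 6 fell and 2 rose, beside 505 and 5385 of all 13163 genes. In ZXD versus CON 6 fell and 2 rose, beside 14.8% and 17.9%. On library totals 4 fell and 2 rose there, beside 628 and 6041 of all genes. Noct, a rhythmic deadenylase-like enzyme, fell from 37.3 ± 19.3 CPM in CON to 3.58 ± 1.68 CPM in HFD (edgeR adjusted p = 2e-04) and 7.52 ± 3.47 CPM in ZXD (edgeR adjusted p = 0.00177). Alas1, the rate-limiting enzyme of haem synthesis, fell by 1.84 (SE 0.29, edgeR adjusted p = 0.000758) in HFD versus CON. Usp2, a rhythmic deubiquitinase, fell by 1.46 (SE 0.38, edgeR adjusted p = 0.0159), and Wee1, a cell cycle kinase with E-boxes, by 1.02 (SE 0.23, edgeR adjusted p = 0.0075). Por, the electron donor of P450 enzymes, and Lpin1, a phosphatidate phosphatase, were called lower as well (-1.13 and -1.82, edgeR adjusted p = 0.0146 and 0.00401). Cdkn1a, a cell cycle inhibitor that REV-ERB-alpha represses, rose from 9.94 ± 7.82 to 27.3 ± 7.11 CPM (edgeR adjusted p = 0.0337), a call lost when CON 1, 2, 4 or 5 or HFD 2, 4 or 5 was left out (edgeR adjusted p up to 0.077).

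With the decoction on top of the feed, Usp2, Alas1 and Por fell by 1.74, 1.70 and 1.33 on the log2 scale against CON (edgeR adjusted p = 0.00482, 0.00114 and 0.00451), and Wee1 and Nr1i3, the xenobiotic receptor CAR, by 0.66 and 1.19 (edgeR adjusted p = 0.0381 and 0.0383). Each of these last calls was lost in 7 of 15 single-library omissions (edgeR adjusted p up to 0.0921 and 0.106). Both were also lost on library totals, at -0.24 and -0.78 (edgeR adjusted p = 0.398 and 0.118). Gys2, liver glycogen synthase, rose by 1.04 (edgeR adjusted p = 0.0101) and Cdkn1a by 1.47 (edgeR adjusted p = 0.0218, lost without CON 5 or ZXD 4, up to 0.0615).

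**Figure D4:**
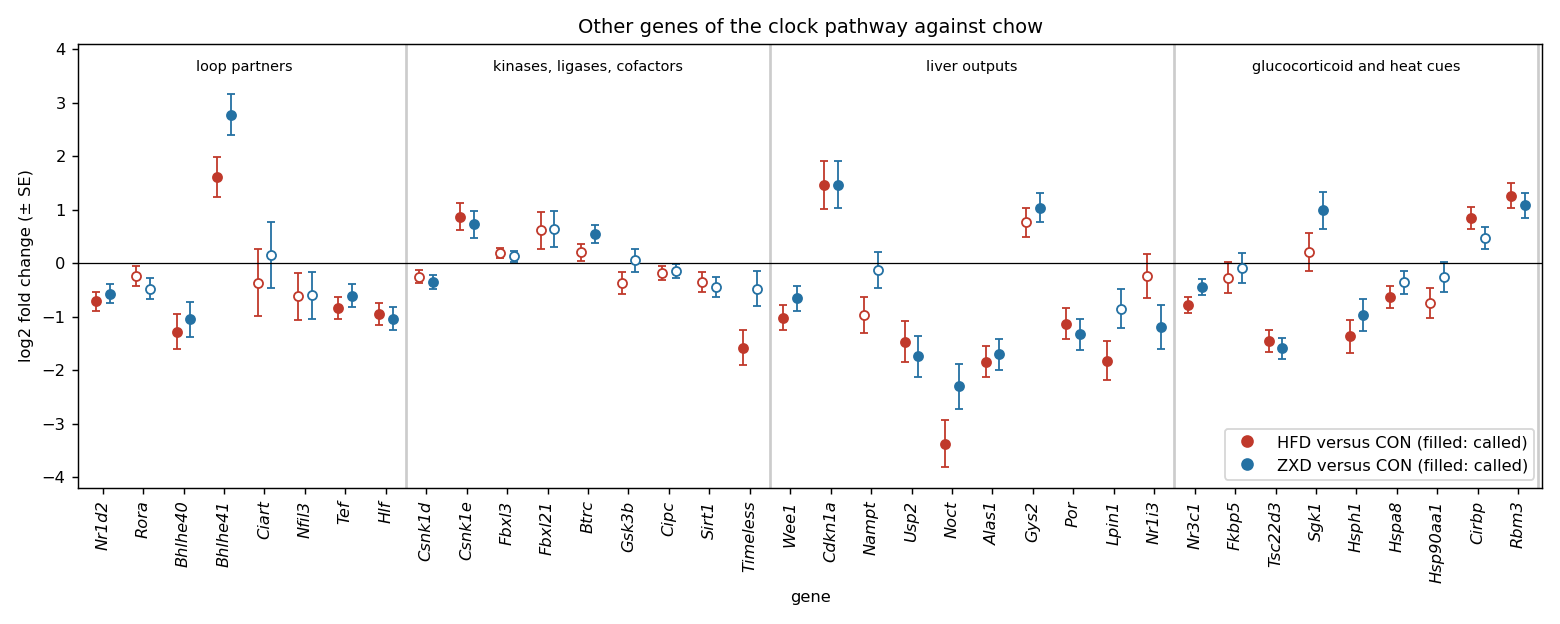
Log2 fold change against CON (vertical axis, ± SE) of 36 tested genes of the clock pathway outside the core set, HFD in red and ZXD in blue, filled where called. Noct, Alas1, Lpin1 and Timeless lie lowest in HFD, and Noct, Usp2, Alas1 and Tsc22d3 in ZXD. Bhlhe41, Cdkn1a and Rbm3 lie highest in both.

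A further list held the glucocorticoid receptor, genes that respond to glucocorticoids, heat shock genes and genes induced by cold. Of 9 tested, 4 fell and 2 rose in HFD versus CON, beside 10.9% and 10.0% of all genes. On library totals 3 fell and 2 rose, beside 505 and 5385 of all 13163 genes. In ZXD versus CON 3 fell and 2 rose, beside 14.8% and 17.9%. On library totals 1 fell and 3 rose there, beside 628 and 6041 of all genes. Nr3c1, the glucocorticoid receptor, fell by 0.79 (SE 0.15, edgeR adjusted p = 0.0029) in HFD versus CON, and Tsc22d3, a glucocorticoid-induced gene, from 132 ± 25.2 to 48.1 ± 10.5 CPM (edgeR adjusted p = 0.00026). Tsc22d3 was 43.6 ± 11.6 CPM in ZXD (edgeR adjusted p = 0.000115). Of the same list, Fkbp5 (-0.27), Sgk1 (0.21) and Hsp90aa1 (-0.74) were not called in HFD versus CON (edgeR adjusted p = 0.512, 0.687 and 0.0731). Fkbp5 was not called in ZXD versus CON either (-0.083, edgeR adjusted p = 0.85). Rbm3 and Cirbp, RNA-binding proteins induced by cold, rose by 1.26 and 0.84 in HFD versus CON (SE 0.23 and 0.21, edgeR adjusted p = 0.00225 and 0.0117), and Rbm3 by 1.08 in ZXD versus CON (edgeR adjusted p = 0.00407). The heat shock genes Hsph1 and Hspa8 fell by 1.37 and 0.63 in HFD versus CON (SE 0.30 and 0.21, edgeR adjusted p = 0.00676 and 0.0451). The call of Hspa8 was lost in 12 of 15 single-library omissions (edgeR adjusted p up to 0.116) and on library totals (-0.21, edgeR adjusted p = 0.424). Nr3c1 (-0.44), Hsph1 (-0.97) and Sgk1 (0.99) were called in ZXD versus CON with edgeR adjusted p = 0.0365, 0.023 and 0.042. Of 15 single-library omissions, 6, 3 and 6 ended those calls (up to 0.0871, 0.0601 and 0.139). On library totals Nr3c1 (-0.028) and Hsph1 (-0.55) were not called (edgeR adjusted p = 0.878 and 0.121).

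Some markers of cell types moved with the feed too. Of all genes, 10.0% were called higher and 10.9% lower in HFD versus CON, and 17.9% and 14.8% in ZXD versus CON. The 6 hepatocyte markers summed to 114580 to 143160 CPM (CON), 40323 to 63571 CPM (HFD) and 24199 to 70262 CPM (ZXD), so the labelled tissue carried its markers in every library, and 3 of 6 fell in HFD and in ZXD versus CON. The 10 macrophage markers summed to 221 to 613 CPM (CON), 433 to 3017 CPM (HFD) and 645 to 5633 CPM (ZXD), with 3 called higher in HFD and 8 in ZXD versus CON. T, B and NK cell markers were called higher in 6 and 8 of 9 tested, cholangiocyte markers in 3 and 1 of 4, neutrophil markers in 2 and 2 of 3, and endothelial markers in 0 and 3 of 5. Of stellate cell markers 1 of 5 fell in HFD and 1 of 5 rose in ZXD. These, and the 1 of 4 cholangiocyte markers in ZXD, are near the shares of all genes. Mpo, a neutrophil granule enzyme, had 0 counts in all 15 libraries. HFD 4 had the lowest macrophage marker level on the feed, and its Npas2 level was 13.1 CPM. As a mean centred log2 CPM that level was -0.99, below CON 1, CON 2 and CON 4. As a summed CPM it was 433, below CON 1 and CON 4 but just above CON 2 (429). Any link of this level with Npas2 was not tested.

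With the macrophage marker level as a covariate, Npas2 (3.56, edgeR adjusted p = 0.0228) and Cry1 (-1.65, edgeR adjusted p = 0.00363) were the clock genes called in HFD versus CON. Of all 13163 genes, 980 were called there. No clock gene was called in ZXD versus CON, where 243 of all genes were. Macrophage levels of ZXD (-0.31 to 2.04) and CON (-2.15 to -0.46) did not overlap, so in that comparison the marker level and the group cannot be told apart. With the cholangiocyte marker level as a covariate, Npas2 lost its call in HFD versus CON (1.92, edgeR adjusted p = 0.268) and Cry1 alone was called. Of all 13163 genes, 493 were called in that fit. The cholangiocyte level was 1.83 in HFD 2 and 0.87 in HFD 4, the libraries with most Npas2, and 1.75 in HFD 5. HFD 1 (-0.46) and HFD 3 (0.12) lay within the CON range of -1.53 to 0.35. Krt7, a marker in that level, had 0 counts in 3 CON, 2 HFD and 1 ZXD libraries. Any link of the cholangiocyte level with Npas2 was not tested. With the hepatocyte or the T, B and NK cell level, neither of which overlapped between CON and HFD, Npas2 was not called either (3.06 and 3.28, edgeR adjusted p = 0.215 and 0.0647). HFD 2 and HFD 5 were the HFD libraries with the highest macrophage level. With both left out, 1 clock gene was called higher and 2 lower in HFD versus CON. Of all 13434 genes tested in that fit, 436 were called higher and 607 lower.

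**Figure D5:**
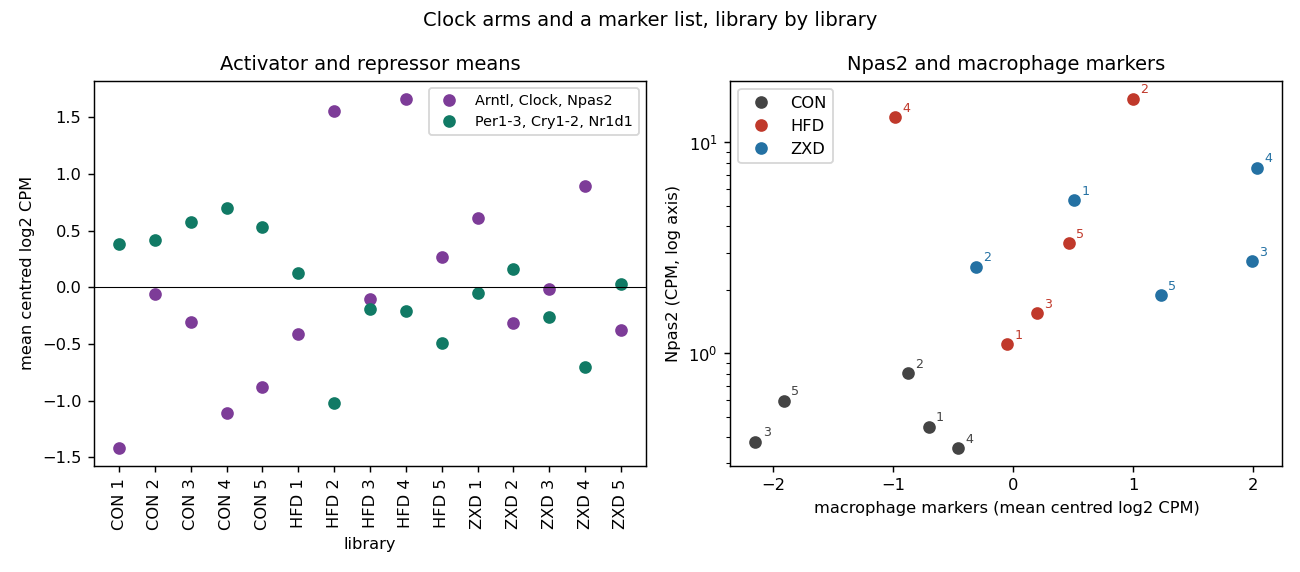
Left, the mean of centred log2 CPM over the 3 activators (purple) and over the 6 repressors (green) in each library. Right, Npas2 in CPM (log axis) against the macrophage marker level (mean centred log2 CPM), numbered by replicate and coloured by group. The activator mean is highest in HFD 2 and HFD 4. HFD 4 has high Npas2 with a low macrophage level, while HFD 2 and ZXD 4 are the highest of their groups in both.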

How the data were processed

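Liver RNA for 15 libraries was purified with Trizol and sequenced after standard Illumina preparation, per the labels' protocols. The authors deposited whole-number read counts and FPKM values per gene, per the file headers. The deposited FPKM equalled count over gene length and library total in 100% of values above 0, within 0.01%, and FPKM was not tested. The submitters' processing notes name edgeR, without role or version. What the sources used here do not give is the aligner, the counter, strand use, build and annotation. Groups and replicate numbers came from the sample titles.

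Counts were analysed with edgeR 4.0.16 in R 4.3.3: filterByExpr by group (minimum count 10, total 15), TMM, robust quasi-likelihood fit of all 15 libraries with group as the term, Benjamini-Hochberg adjustment over 13163 genes. Intervals at 95% use the SE and 12 residual degrees of freedom. Log2 CPM carries a prior count of 2. Alternatives included DESeq2 1.42.0 and limma 3.58.1. The fit was tested on simulated data.

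The members and lists were chosen with earlier results of these data known. Named are the 10 core genes, called members of 4 pathway lists (36 tested genes), and the 5 genes most like and least like Arntl and Dbp. The uncalled Fkbp5 and Hsp90aa1 are named too. Same-numbered libraries of different groups deviated together with r from -0.547 to 0.26, so the numbers were not taken as pairs.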

Additional observations from a re-analysis of the deposited data

How the results depend on the processing

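The count of called clock genes, 5 in HFD versus CON and in ZXD versus CON and 0 in ZXD versus HFD, stayed within 1.5 times of itself with DESeq2 size factors, library totals, no filter, the strict filter, DESeq2, limma voom and fits of the 2 groups alone. In HFD versus CON it was 3 without HFD 2 and HFD 5, 3 without HFD 2 and HFD 4, 2 with the macrophage or the T, B and NK cell marker level as a covariate, and 1 with the cholangiocyte or the hepatocyte marker level. For ZXD versus CON it was 0 with the macrophage or the T, B and NK cell marker level and 1 with the hepatocyte marker level. The last 3 covariates and the omission of HFD 2 and HFD 4 were chosen after seeing the data, and the hepatocyte and the T, B and NK cell levels did not overlap between CON and the other groups, so they cannot be told apart from the feed. Leaving out each library in turn gave 3 to 5 called clock genes in HFD versus CON, 3 to 6 in ZXD versus CON and 0 in ZXD versus HFD. The cause of these changes was not tested.

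The replicate number as a block gave 4 called clock genes in HFD versus CON (1 higher, 3 lower), 4 in ZXD versus CON and 0 in ZXD versus HFD, the call lost being Per1 both times. Of all genes, the block called 1909 in HFD versus CON, 3466 in ZXD versus CON and 0 in ZXD versus HFD. Not every library correlated best with its own number.

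All genes called were 2758 in HFD versus CON and 5890 on library totals (5385 higher and 505 lower, against 1322 and 1436), 1043 without HFD 2 and HFD 5, 1585 without HFD 2 and HFD 4, and 980, 599, 493 and 250 with the macrophage, T, B and NK cell, cholangiocyte and hepatocyte levels. For ZXD versus CON they were 4299 and 6669 on library totals (6041 higher and 628 lower, against 2356 and 1943), and 243, 300, 2720 and 322 with these 4 covariates. In ZXD versus HFD they were 0, and 348 with DESeq2. Leaving out single libraries gave 1697 (without HFD 2) to 3235, 3037 to 4680 and 0 to 7 (without HFD 1).

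The Dbp minus Arntl difference moved by less than its SD with a prior count of 0.5, and single omissions gave 5.54 to 6.52 (CON), 3.69 to 4.51 (HFD) and 4.95 to 5.82 (ZXD). By Spearman correlation, 4 of the 10 genes named with Arntl and 4 of the 10 with Dbp were among the 5 at either end.

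Of 870 alternative values of the 30 clock gene fold changes, 740 kept their direction and side of the threshold, 65 lost a call, 9 gained one and 56 changed sign, of which 1 was of a called gene: Per1 in ZXD versus CON, 0.028 with the T, B and NK cell level. Uncalled values that changed sign in HFD versus CON were Clock at 0.37 on library totals, 0.064 without HFD 2 and HFD 5, 0.26 with the macrophage and 0.28 with the T, B and NK cell level, Cry2 at 0.19 with the latter and 0.45 with the hepatocyte level, and Dbp at 0.041 with the cholangiocyte and 0.23 with the hepatocyte level. For ZXD versus CON they were Arntl at -0.30, -0.20 and -0.998 with the T, B and NK cell, cholangiocyte and hepatocyte levels, Cry2 at 0.72, 0.14 and 0.88 and Dbp at 0.22, 0.022 and 0.54 with the same, Clock at 0.22 with the T, B and NK cell and 0.33 with the macrophage level, Cry2 at 0.57 with the latter, and Clock, Cry2 and Dbp at 0.23, 0.34 and 0.12 on library totals. In ZXD versus HFD, Per1 was -0.0026 with DESeq2 and with its size factors, -0.0073 on library totals, -0.016 with the 2 groups alone, -0.076 without HFD 2 and HFD 4, -0.12 without HFD 2 and HFD 5 and -0.18 with the cholangiocyte level. Without HFD 2 and HFD 4, Clock was 0.041, Npas2 1.01 and Cry1 -0.11, and without HFD 2 and HFD 5, Cry1 was -0.018 and Nr1d1 -0.14. Npas2, Nr1d1 and Dbp were 0.31, -0.22 and -0.019 with the cholangiocyte level, and Clock and Per2 0.066 and 0.018 with the macrophage level. Single omissions that changed a sign gave -0.19 to 0.094 for Clock in HFD versus CON, -0.13 to 0.13 for Per1, -0.55 to 0.034 for Per2 and -0.080 to 0.36 for Nr1d1 in ZXD versus HFD, and -0.054 to 0.62 for Arntl and -0.20 to 0.066 for Cry2 in ZXD versus CON. Depth limits the fold of Npas2, which rests on 4 to 9 counts per CON library.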
